A study of Mus musculus with 12 samples.

Results

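The semaphorins, plexins and neuropilins were followed as the 31 genes listed in both deposited expression tables whose symbols run from Sema3 to Sema7, Plxna to Plxnd, or Nrp1 and Nrp2. They are 31 of 38720 gene entries shared by the tables. The rule is by name with no measured value in it, though earlier results of these data were known when it was set. The genes fall into 7 secreted ligands, 13 membrane-bound ligands, 9 plexin receptors and 2 neuropilin co-receptors. RNA-seq was performed on retinas of C57/BL6 pups at P0. In mKO pups (Math5-Cre;Ezh2 fl/fl) the Cre knock-in at Math5 removes the exons for the SET domain of the histone methyltransferase Ezh2 in cells that have expressed Math5, which are a part of the RGCs and some other retinal cells. The labels call the control pups wild type (WT), while the methods of the study name littermate Ezh2 fl/fl pups without Cre as controls unless stated otherwise, so the controls may carry the floxed alleles. Cells bound by beads against CD90, the product of Thy1, were taken as RGCs and the remaining retinal cells as non-RGCs, in 3 libraries from separate RNA extractions for each genotype and fraction, 12 in all. The labels do not say how many pups entered an extraction, so the p-values measure the spread between extractions.

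Semaphorins are guidance ligands that act over short distances on growing axons, dendrites and vessels. They bind plexins, whose cytoplasmic part switches off small GTPases of the R-Ras and Rap type and acts on RhoA, and the growth cone collapses or turns. The secreted class 3 ligands mostly need a neuropilin to hold them on an A-type plexin, Sema3e being the exception that binds Plxnd1 directly. In the retina these molecules are known for steering RGC axons to the optic nerve head and across the chiasm, for confining neurites to the inner plexiform layer, and for patterning the retinal vessels.

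The recovered depth was 7139633 to 13014004 reads on genes per library, the shallowest being an mKO non-RGC library. Since the columns carry no replicate numbers, library A is the deepest of its group, C the shallowest and B the one between. Values are normalised read counts, that is reads divided by the size factor the authors' software gave the library. Thy1 was 407-fold higher per length in WT RGCs than in WT non-RGCs. It read 1.94 to 9.38 in WT non-RGCs, so the ratio rests on few reads. In mKO it read 1422 to 1426 in RGCs and 67.0 to 93.2 in non-RGCs. The 12 RGC markers together were 5.18-fold higher in WT RGCs than in WT non-RGCs. The gene total of Ezh2, which counts exons outside the deleted part too and therefore does not test the deletion, was 1354 to 1476 in mKO RGCs and 1189.9 to 1678 in WT RGCs. WT RGC library C stood apart from the other WT RGC libraries, with a summed progenitor marker count of 24806 beside 14940.1 and 15816. Calls and values that moved without it are given beside the RGC results.

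In the exons of these genes the share of G and C ran from 38.0% in Sema3d to 62.9% in Sema6b, over 3298 to 18686 exonic bases. Differences between mKO and WT ran with this share, as given further on. The middle 120 bases of the longest internal exon that is wholly coding are shown for 4 genes, with every G and C in capitals, so that the contrast between the ligands that rose in mKO RGCs and the genes that fell can be read from the letters. The Sema3a stretch lies at chr5:13565801-13565920 on the plus strand of GRCm38 (exon 11 of 17) and the Sema3e stretch at chr5:14232046-14232165 on the plus strand (exon 11 of 17). The Sema6b stretch lies at chr17:56128299-56128418 on the minus strand (exon 10 of 17) and the Plxnd1 stretch at chr6:115966806-115966925 on the minus strand (exon 18 of 36). G and C make up 35.8%, 43.3%, 60.8% and 62.5% of them.
Sema3a: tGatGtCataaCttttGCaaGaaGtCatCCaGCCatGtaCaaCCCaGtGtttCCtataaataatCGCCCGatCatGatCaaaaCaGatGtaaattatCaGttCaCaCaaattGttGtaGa
Sema3e: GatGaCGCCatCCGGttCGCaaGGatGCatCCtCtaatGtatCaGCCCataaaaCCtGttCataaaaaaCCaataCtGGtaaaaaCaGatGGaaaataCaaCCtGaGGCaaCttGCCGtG
Sema6b: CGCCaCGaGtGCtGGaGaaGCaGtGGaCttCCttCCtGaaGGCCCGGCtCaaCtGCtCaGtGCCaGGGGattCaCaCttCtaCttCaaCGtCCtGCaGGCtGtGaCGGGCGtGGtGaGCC
Plxnd1: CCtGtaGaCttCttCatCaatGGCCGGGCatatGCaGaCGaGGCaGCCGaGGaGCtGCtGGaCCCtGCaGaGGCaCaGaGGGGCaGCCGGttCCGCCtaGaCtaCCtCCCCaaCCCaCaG

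The WT libraries show which of the genes each fraction held. Levels were scaled to exon length and to the recovered reads of the library (RPKM), and since the fractions were normalised in separate tables they are described without a test. In WT RGCs 13 of 31 genes lay above every WT non-RGC library, 9 lay below and 9 overlapped, where 27.6% and 32.7% of the 15750 genes with reads did so. Without WT RGC library C the count above was 17, for which the share of all genes was not taken. Leaving out a library can only keep or raise such a count.

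Among the secreted ligands, Sema3e was the gene with the largest ratio between the fractions, at 9.85 ± 2.13 RPKM (SD, n = 3) in WT RGCs and 1.23 ± 0.354 in WT non-RGCs, 8.0-fold apart. Sema3a, the ligand whose loss misroutes many peripheral nerves, was at 5.42 ± 1.05 and 1.56 ± 0.385, 3.46-fold apart. Sema3f, which prefers Nrp2, was the most abundant secreted ligand in both fractions and higher in non-RGCs, at 22.8 ± 3.09 in RGCs and 32.9 ± 1.36 in non-RGCs. Sema3b, Sema3c, Sema3d and Sema3g stayed at or under 2.08 ± 0.313 RPKM in RGCs, and their ranges overlapped between the WT fractions. Sema3d was the lowest secreted ligand in RGCs at 0.433 ± 0.240, followed by Sema3c, whose 3 WT RGC libraries ran from 0.172 to 2.71.

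Among the membrane-bound ligands Sema6a, a transmembrane ligand of A-type plexins that sorts neurites within the inner plexiform layer, led in WT RGCs at 44.7 ± 7.97 RPKM beside 20.8 ± 0.626 in non-RGCs. Sema4f was 5.09-fold and Sema6d, which meets crossing RGC axons at the chiasm, 2.96-fold higher in RGCs. Sema6d was also the lowest of the 13 in WT RGCs, at 5.80 ± 1.79. Sema5b, a transmembrane ligand that with Sema5a keeps retinal neurites in the inner retina, was 2.26-fold higher in non-RGCs, Sema4d, the ligand of Plxnb1, 1.89-fold and Sema5a 1.75-fold. Sema4c led in WT non-RGCs at 38.9 ± 0.962.

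Of the receptors, Plxna1, which class 3 and class 6 semaphorins use, was the most abundant of all 31 genes in WT RGCs at 46.3 ± 5.74 RPKM, followed by Sema6a and by Plxnb2 at 42.0 ± 2.87. The ranges of these 3 in the WT RGC libraries overlapped. Plxnb2, the receptor of Sema4c, was the most abundant in WT non-RGCs at 57.2 ± 1.02. Plxna3 was 2.41-fold higher in RGCs, and Plxnd1 and Plxna4 were 1.95-fold and 1.78-fold higher in non-RGCs. Plxnb3 was the lowest gene in every group, at 0.247 RPKM in WT RGCs. Nrp1, which also serves as a co-receptor of VEGF, stood at 13.8 ± 3.05 in RGCs and 6.66 ± 0.597 in non-RGCs, 2.07-fold apart, and Nrp2 at 10.4 ± 2.75 and 2.58 ± 0.629, 4.03-fold apart.

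**Figure D1:**
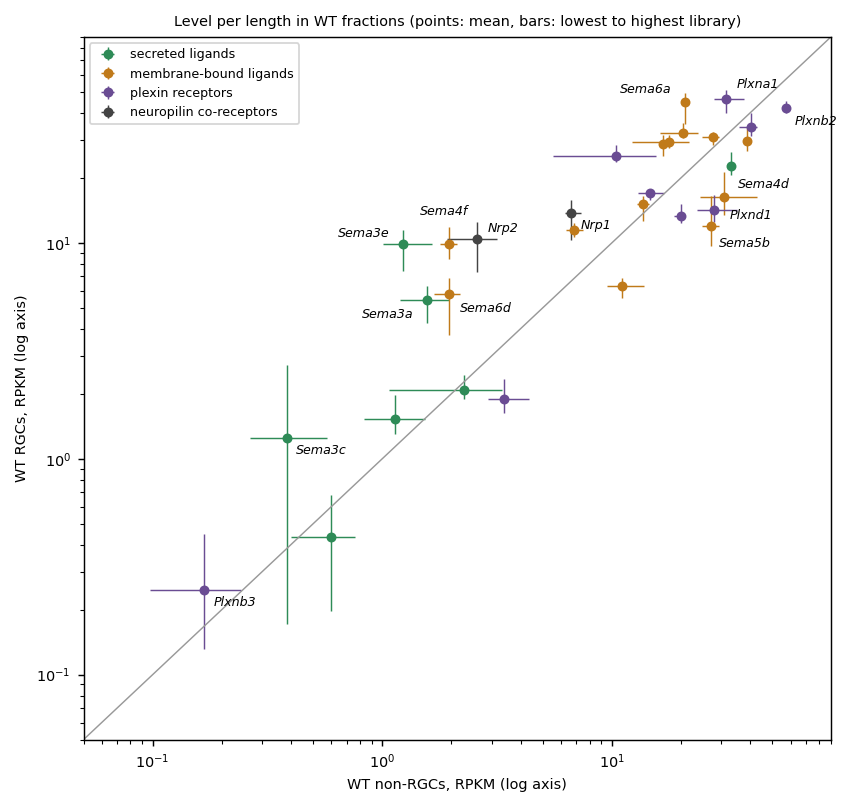
Mean level per length of each gene in WT non-RGCs (x axis, RPKM, log axis) against WT RGCs (y axis, RPKM, log axis), with bars from the lowest to the highest of 3 libraries. Sema3e, Sema4f, Nrp2 and Sema3a lie well above the line of equal levels, and Sema5b, Plxnd1 and Sema4d below it.

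In mKO pups 16 of the genes had every RGC library above every non-RGC library and 7 below. The shares were 29.4% and 41.2% of the same 15750 genes, which were chosen by their WT means. The ratio between fractions was 9.01 for Sema3e, 4.22 for Sema3a and 4.97 for Sema6d, and for Nrp2 it was 8.23, where WT had 4.03. RGC markers differed less between the mKO fractions. Thy1 read 67.0 to 93.2 normalised counts in mKO non-RGCs and 1.94 to 9.38 in WT non-RGCs. The RGC marker sum was 6008 to 8209 in mKO non-RGCs and 5635 to 5968 in WT non-RGCs. It was 23384 to 24514 in mKO RGCs and 32395 to 35033 in WT RGCs. In mKO, 10 of 12 markers were lower in RGCs and 8 of 12 higher in non-RGCs. Over all genes tested, 21.2% were lower in RGCs and 4.18% higher in non-RGCs. In such bulk samples fewer cells of a type and less RNA per cell cannot be told apart.

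The main comparison was mKO against WT RGCs, which asks what changed in the purified cells when Ezh2 was deleted in the Math5 lineage. With limma on log2(value + 1) and Benjamini-Hochberg adjustment over 16085 genes, all 31 genes passed the filter on low values, 2 were higher in mKO RGCs, 12 were lower and 17 were not called. Over all genes tested, 16.3% were higher and 21.2% lower. The genes' median log2 fold change was -0.28, beside -0.0024 for all genes. The mKO libraries were all above the WT libraries for 4 genes and all below for 14, where 24.8% and 28.2% of all genes did so.

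The 2 rises were secreted ligands. Sema3a (ENSMUSG00000028883, chr5:13125414-13602565 in GRCm38) read 1482, 1519.5 and 1542 in mKO RGC libraries A, B and C and 990.3, 1104 and 729 in WT RGC libraries. The mKO values were tight and all above WT, a 1.63-fold rise (log2 fold change 0.71, SE 0.14, adjusted p = 0.00855). Sema3e (ENSMUSG00000063531, chr5:14025276-14256689) read 1646, 1591 and 1666 in mKO and 1331, 1252 and 854 in WT RGCs. Its mKO values were again all above WT, with the WT library C the lowest (log2 fold change 0.54, SE 0.16, adjusted p = 0.0339). Sema3f (ENSMUSG00000034684) was the secreted ligand that fell, from 1386, 1360.3 and 1692 in WT to 967, 1115 and 1023 in mKO RGCs (log2 fold change -0.51, SE 0.10, adjusted p = 0.00754). The groups did not overlap for any of these 3.

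The other secreted ligands were not called. Sema3c ranged widely within both genotypes, reading 187, 43.3 and 79.0 in mKO and 76.0, 245 and 15.2 in WT RGCs. The summed mesenchyme markers of the same libraries, collagens and other genes of connective tissue, were 6954, 627 and 2159 in mKO and 5004, 15901 and 249.7 in WT. Within each genotype the highest and lowest Sema3c values fell in the libraries with the most and the least mesenchyme signal, whose part in the values was not tested. Sema3d read 82.0, 63.6 and 70.6 in mKO and 45.6, 73.8 and 21 in WT RGCs, and without WT RGC library B it was called higher (log2 fold change 1.18, adjusted p = 0.0462). Sema3b and Sema3g had log2 fold changes of -0.37 (SE 0.17) and -0.19 (SE 0.25).

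Of the 13 membrane-bound ligands 7 fell in mKO RGCs and 0 rose, with a median log2 fold change of -0.37. Sema5b (ENSMUSG00000052133, chr16:35541145-35664732) fell most, reading 549.7, 666 and 506 in mKO and 852, 901 and 1437 in WT RGCs (log2 fold change -0.86, SE 0.21, adjusted p = 0.0167). The groups were apart, and WT library C, the one rich in progenitor markers, was the highest. Sema6b (ENSMUSG00000001227, chr17:56123085-56140343), a class 6 ligand, read 914, 839 and 920.3 in mKO and 1566, 1492 and 1235 in WT RGCs (log2 fold change -0.68, SE 0.10, adjusted p = 0.00238). Sema6c read 1524, 1535 and 1579 in mKO and 2662, 2310.2 and 2243 in WT (log2 fold change -0.63, SE 0.073, adjusted p = 0.00111). Neither gene overlapped between the groups, and for Sema6c the gap between them was wider than the spread within either.

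The class 4 ligands that fell, and Sema7a, had estimates between -0.47 and -0.37. Sema4g read 2235, 2341 and 2343 in mKO and 3419.8, 3196 and 2958 in WT RGCs (log2 fold change -0.47, SE 0.065, adjusted p = 0.00216), Sema4c, the ligand of Plxnb2, 1207, 1353 and 1371 in mKO and 1621, 1556 and 1944 in WT (log2 fold change -0.38, SE 0.10, adjusted p = 0.0217). Sema4a, which mouse photoreceptors depend on for survival, read 565, 585 and 645 in mKO and 837, 726 and 759.7 in WT (log2 fold change -0.37, SE 0.083, adjusted p = 0.0126). Sema7a, held in the membrane by a lipid anchor and a ligand of Plxnc1, read 958, 957 and 918 in mKO and 1300.4, 1360.3 and 1155 in WT (log2 fold change -0.43, SE 0.073, adjusted p = 0.00452). In these 4 genes the lowest WT library was above the highest mKO library. The 6 ligands not called were Sema4b, Sema4d, Sema4f, Sema5a, Sema6a and Sema6d, with log2 fold changes from -0.30 to 0.32. Sema6a, the most abundant ligand, read 3811, 3999.9 and 4327 in mKO and 5409, 5488 and 3858 in WT RGCs, and WT library C alone kept the groups overlapping.

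Of 9 plexins 4 fell. Plxnd1 (ENSMUSG00000030123, chr6:115954811-115995005), the receptor of Sema3e, changed most of all 31 genes in RGCs, reading 722, 654 and 625 in mKO and 1141, 1249.5 and 1512 in WT, a 1.94-fold fall (log2 fold change -0.96, SE 0.11, adjusted p = 0.00115). Plxnb2 read 2714, 2745 and 2857 in mKO and 3945, 3894 and 4321 in WT RGCs (log2 fold change -0.55, SE 0.059, adjusted p = 0.000927). Plxna1 read 3682, 3609 and 3965 in mKO and 5423, 5856 and 4473 in WT (log2 fold change -0.48, SE 0.10, adjusted p = 0.0109), and Plxnb1, the receptor of Sema4d, 3010.2, 3308 and 3351 in mKO and 3734, 3828 and 4749.8 in WT (log2 fold change -0.34, SE 0.10, adjusted p = 0.0348). All 4 were lower in every mKO library than in every WT library.

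Plxnc1, the receptor of Sema7a, read 2037, 1983 and 2068 in mKO and 1845, 1868 and 1637 in WT RGCs, apart but not called (log2 fold change 0.19, SE 0.065, adjusted p = 0.0576). Plxna2, Plxna3 and Plxna4 lay between -0.10 and 0.042 on the log2 scale, and Plxnb3, at 7.38 to 36.9 normalised counts in the RGC libraries, had an estimate of -0.57 with a wide SE of 0.51. Nrp1 read 2172, 2079 and 2267 in mKO and 1868, 1964 and 1248 in WT RGCs (log2 fold change 0.39, SE 0.16, adjusted p = 0.105). Nrp2 read 1509, 1417 and 1450.1 in mKO and 1691, 1873 and 1068 in WT (log2 fold change -0.042, SE 0.19, adjusted p = 0.883). In both neuropilins the WT library C was the lowest value of 6.

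**Figure D2:**
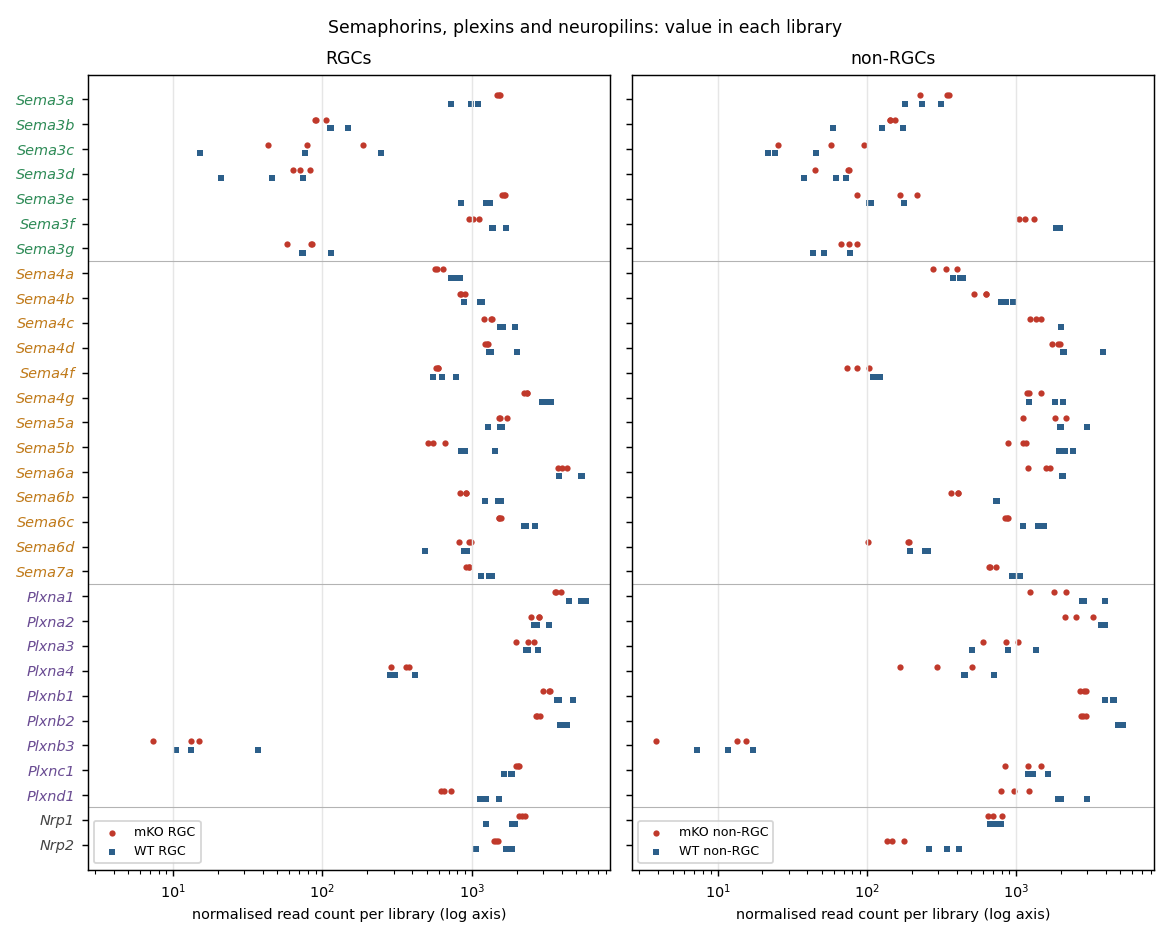
Normalised read count of each gene in each library (x axis, log axis), mKO as red circles and WT as blue squares, RGCs on the left and non-RGCs on the right. Sema3a and Sema3e have all red points to the right of the blue in RGCs, and Plxnd1, Plxnb2, Sema5b, Sema6b and Sema6c have them to the left in both fractions.

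Without WT RGC library C, 4 genes were higher (Sema3a, Sema3e, Plxnc1 and Nrp1) and 16 lower, the additional falls being Sema4b, Sema4f, Sema6a and Nrp2, whose log2 fold change became -0.29 (adjusted p = 0.00372 by limma). The shares of all genes given above come from all 6 libraries and were not taken again with a library left out. The estimates of Sema3a and Sema3e became 0.53 and 0.34, those of Plxnc1 and Nrp1 0.13 and 0.18, and that of Sema5b -0.62, so each was smaller in size without this library than with it. Leaving out each of the 6 libraries in turn, 9 of the 14 calls held each time and 5 did not. Sema3e, Sema4c and Plxnb1 lost the call without any 1 of the mKO libraries, Sema4a without mKO library A or B, and Sema5b without mKO library A or C, the highest adjusted p being 0.102, 0.0816, 0.116, 0.0569 and 0.0665 in that order. By the thresholds of the study, an unadjusted p under 0.05 and a fold of at least 1.5, 1 gene was higher (Sema3a) and 4 lower (Sema5b, Sema6b, Sema6c and Plxnd1), 5 of 31 in all where 16.3% of all genes passed.

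The same comparison in non-RGCs, of which few descend from Math5-expressing cells, gave 0 genes higher and 13 lower of the 31, all of which passed the filter among 15326 genes. Over all genes 4.18% were higher and 6.43% lower. The genes' median log2 fold change was -0.47, beside -0.026 for all genes. The mKO libraries were all below the WT libraries for 17 genes and all above for 0, where 19.2% and 17.5% of all genes did so. By the unadjusted criteria of the study 0 were higher and 10 lower, where 15.7% of all genes passed in either direction.

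Nrp2 (ENSMUSG00000025969, chr1:62703285-62818695), the co-receptor of Sema3f, read 176, 147 and 137 in mKO and 345, 415 and 263 in WT non-RGCs, a 2.19-fold fall (log2 fold change -1.13, SE 0.21, adjusted p = 0.0151). Its genotypes did not overlap in non-RGCs and did in RGCs. Nrp2 was higher in the RGC fraction of WT retinas, and the summed RGC markers were higher in mKO than in WT non-RGCs. Neuropilins and Plxnd1 are also known in endothelial cells and pericytes. Markers of these cells summed to 5278 to 6040 in mKO and 6887 to 7190 in WT non-RGCs, with 0 of 8 called. Most of that sum was 1 gene, Kdr, at 4509 to 5153 in mKO and 5941 to 6191 in WT. The median log2 fold change of the 8 was -0.84. The part of these cells in the Nrp2 value was not tested. Nrp1 read 805, 648 and 705 in mKO and 668, 794 and 727 in WT non-RGCs (log2 fold change -0.022, SE 0.14, adjusted p = 0.93).

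Plxnd1 read 1229, 969 and 789 in mKO and 1988, 1898 and 2968 in WT non-RGCs, a 2.28-fold fall (log2 fold change -1.19, SE 0.21, adjusted p = 0.0114) and the largest of the 31 in this fraction. Plxnb2 read 2937, 2716 and 2795 in mKO and 4788, 4844 and 5217 in WT (log2 fold change -0.81, SE 0.10, adjusted p = 0.0048), with little spread in either genotype. Plxna1 read 2157, 1808 and 1233 in mKO and 2762, 2832 and 3953 in WT (log2 fold change -0.89, SE 0.21, adjusted p = 0.0297), and Plxnb1 2868, 2942 and 2693 in mKO and 4508, 4482 and 3959 in WT (log2 fold change -0.60, SE 0.10, adjusted p = 0.0114). Plxna2, a receptor of Sema6a, read 3278, 2534 and 2118 in mKO and 3851, 3966 and 3695 in WT (log2 fold change -0.56, SE 0.15, adjusted p = 0.045). Of the 4 plexins not called, Plxna4 had the lowest estimate, at 504, 295 and 167 in mKO and 455, 450.0 and 709 in WT non-RGCs (log2 fold change -0.85, SE 0.35, adjusted p = 0.144), and its groups overlapped.

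Among the membrane-bound ligands 6 of 13 fell, and the other 7 also had negative estimates, from -0.57 to -0.30. Sema5b read 1109, 1157 and 881 in mKO and 2128, 1941 and 2398 in WT non-RGCs, a 2.06-fold fall (log2 fold change -1.04, SE 0.14, adjusted p = 0.0063). Sema6b read 367, 411 and 407 in mKO and 744, 738 and 740.3 in WT (log2 fold change -0.91, SE 0.13, adjusted p = 0.00732), with a spread between WT libraries far smaller than the fall. Sema6c read 842, 874 and 877 in mKO and 1547, 1405 and 1108 in WT (log2 fold change -0.63, SE 0.14, adjusted p = 0.027), Sema4c 1249, 1465 and 1366 in mKO and 1999, 1996 and 2012 in WT (log2 fold change -0.56, SE 0.11, adjusted p = 0.0185). Sema7a read 665, 736 and 661 in mKO and 1024, 1070.2 and 942 in WT (log2 fold change -0.56, SE 0.13, adjusted p = 0.0258), and Sema4b 629, 631 and 521 in mKO and 794, 854 and 949 in WT (log2 fold change -0.55, SE 0.14, adjusted p = 0.0397). The genotypes did not overlap for any of these 6.

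Sema3f was the only secreted ligand called in non-RGCs, reading 1054, 1146 and 1312 in mKO and 1838, 1982 and 1926 in WT (log2 fold change -0.71, SE 0.12, adjusted p = 0.0111). Sema3a, which rose in RGCs, read 358, 343 and 229 in mKO and 181, 236 and 315 in WT non-RGCs (log2 fold change 0.35, SE 0.25, adjusted p = 0.369). Sema3e read 216, 168 and 86.1 in mKO and 103, 107 and 176 in WT (log2 fold change 0.23, SE 0.35, adjusted p = 0.694), and both overlapped between genotypes. All 6 secreted ligands not called had positive estimates, from 0.19 (SE 0.33) for Sema3d to 0.83 (SE 0.48) for Sema3c.

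Leaving out each non-RGC library in turn, 3 of the 13 calls held each time (Sema5b, Sema6b and Plxnb2). The number of genes lower was 3 without mKO library B, 4 without WT library B and 8 without WT library A. Shares of all genes were not taken for fits with a library left out or with scaling by total reads. Nrp2 lost its call without mKO library B (adjusted p = 0.0779) or WT library B (adjusted p = 0.0654), and Plxnd1 without mKO library B (adjusted p = 0.0600), both by limma. Sema4b lost its call without any 1 of the 6 libraries, at adjusted p of 0.0531 to 0.133. Calls were gained by Sema6a and Plxna4 without mKO library A (adjusted p = 0.0437 and 0.0345) and by Sema4g without WT library C (adjusted p = 0.0374). Scaling by total reads, which raises the median log2 fold change of all genes to 0.12 in RGCs and 0.14 in non-RGCs, left 8 of the 13 falls in non-RGCs and 9 of the 12 in RGCs, where Sema4a, Sema4c and Plxnb1 were no longer called (adjusted p = 0.0508, 0.0832 and 0.128).

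**Figure D3:**
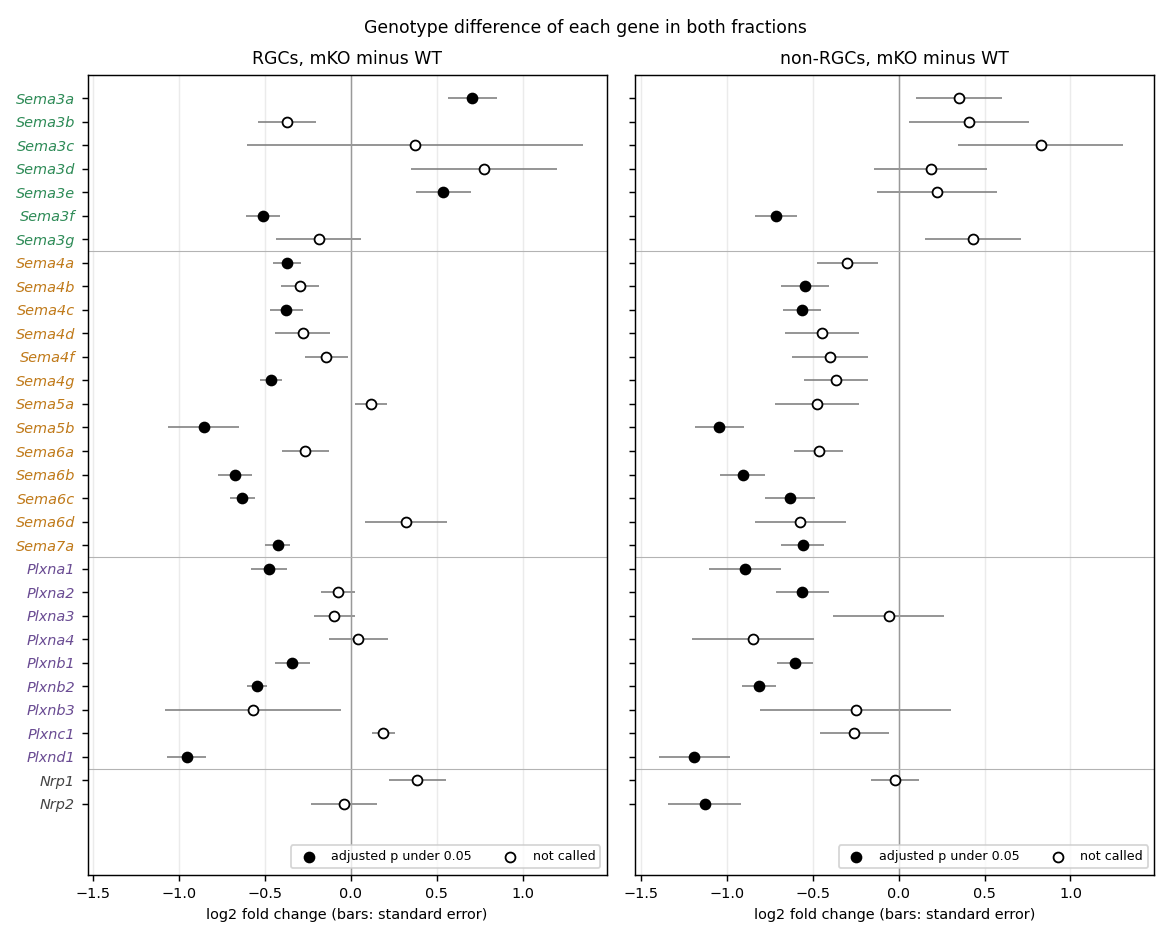
Log2 fold change of each gene, mKO minus WT (x axis), with standard error bars, in RGCs on the left and non-RGCs on the right. Filled points passed an adjusted p of 0.05. In non-RGCs 25 of 31 points lie left of 0, and in RGCs 22 of 31.

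Several genes were lower in both fractions. Sema3f, Sema4c, Sema5b, Sema6b, Sema6c, Sema7a, Plxna1, Plxnb1, Plxnb2 and Plxnd1 were lower in both, which is 10 of the 12 falls in RGCs and 10 of the 13 in non-RGCs. Over the 14894 genes tested in both fractions, 767 were lower in both, which is 22.6% of the falls in RGCs and 77.9% of those in non-RGCs. Sema4a and Sema4g were called in RGCs alone, and Sema4b, Plxna2 and Nrp2 in non-RGCs alone. When the difference between the fractions was tested over all 12 libraries, 0 of 31 genes passed, and 16 of 16517 genes did (0.0969%). At an unadjusted p under 0.05 there were 4 of the 31, where 9.66% of all genes were, led by Nrp2 (log2 fold change in RGCs minus that in non-RGCs 1.09, SE 0.29, adjusted p = 0.345 by limma) and followed by Plxnb2, Plxna2 and Sema6d. A change in 1 fraction alone was therefore not shown for any of the 31.

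The size of the genotype difference followed the G and C content of the exons. Across the 31 genes, which share the same 6 libraries and are not independent, the RGC log2 fold change and the exonic share of G and C had a Pearson r of -0.92 and a Spearman rho of -0.91. Over 12791 genes, those with a mean count of 50 or more, the values were -0.70 and -0.72. In non-RGCs they were -0.55 and -0.56 for the 31 genes and -0.45 and -0.49 over 12226 genes. Of the 6 genes with under 45% G and C, 2 were higher and 0 lower in RGCs, while 44.4% of all such genes were higher and 4.12% lower. All 4 genes with at least 60% (Sema3f, Sema6b, Sema6c and Plxnd1) were lower in RGCs, where 63.9% of all such genes were. The same 4 were lower in non-RGCs, where 31.8% were. Sema3a (38.3%) and Sema3e (41.0%), printed above with few capitals, lay in the range whose median over all genes was 0.36 in RGCs, and Sema6b (62.9%) and Plxnd1 (60.4%) in the range whose median was -0.62.

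**Figure D4:**
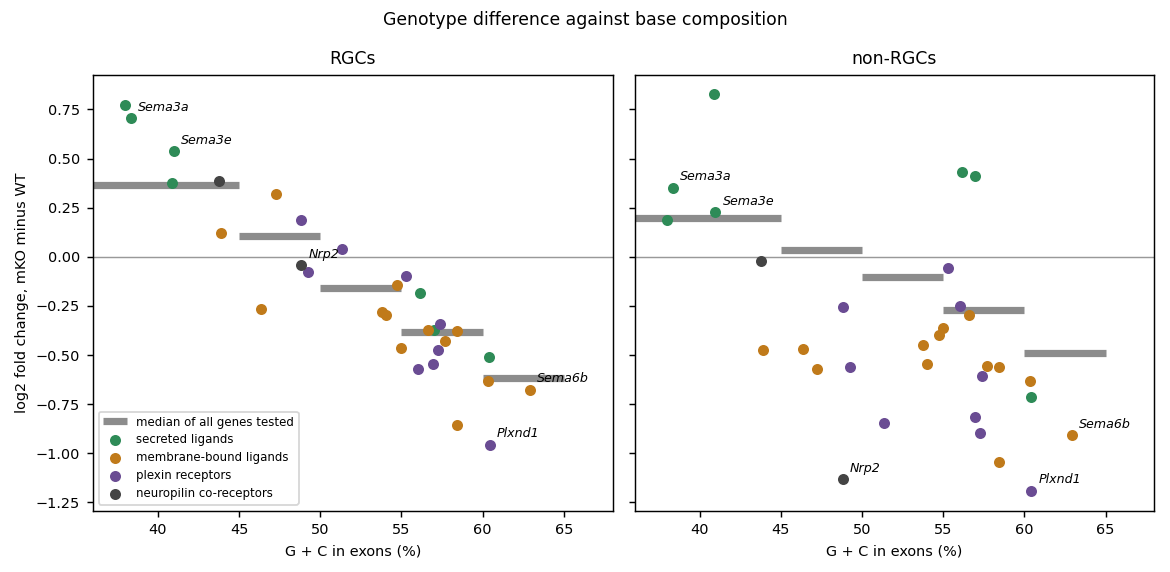
Share of G and C in the exons (x axis, percent) against log2 fold change, mKO minus WT (y axis), RGCs left and non-RGCs right. Points are the 31 genes coloured by role and grey bars the median of all genes tested in each range of composition. In RGCs the points run along the bars, with Plxnd1 at -0.96, Sema5b at -0.86 and Sema6a at -0.27 among those below them. Sema3d at 0.77 and Sema3a at 0.71 are among those above. In non-RGCs Nrp2 lies at -1.13 where the bar is at 0.032.

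The fit was repeated with the trend with G and C removed from each library. This also takes away any real difference that happens to run with base composition. In RGCs 0 of 31 genes were then called, where 14.1% of 15889 genes were. At an unadjusted p under 0.05 there were 4, where 31.8% of all genes were: Plxnd1 (-0.41, SE 0.11, adjusted p = 0.0571), Plxnc1 (0.22, SE 0.068, adjusted p = 0.0751), Plxnb2 (-0.15, SE 0.055, adjusted p = 0.112) and Sema6a (-0.36, SE 0.15, adjusted p = 0.144). Sema3a moved to 0.23 (SE 0.15) and Sema3e to 0.20 (SE 0.17). Sema6b, Sema6c and Sema7a moved to -0.020, -0.092 and 0.00024. The median of the 31 genes was 0.010, beside 0.051 for all genes. With trends against both base composition and reads per base removed, 1 gene was called (6.47% of all genes were), Plxnd1 at -0.52 (SE 0.11, adjusted p = 0.0395), and that call was lost when any library other than WT RGC library C was also left out (adjusted p of 0.0533 to 0.163).

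In non-RGCs 1 of 31 genes was called once the trend was removed, where 1.51% of 15151 genes were. It was Nrp2, at -1.08 (SE 0.22, adjusted p = 0.0466), 2.11-fold lower, beside -1.13 without the removal. With both trends removed it was again the 1 gene called, where 1.77% of all genes were, at -1.16 (SE 0.19, adjusted p = 0.0345). Leaving out a library as well, its log2 fold change with both trends removed stayed between -1.31 and -1.0, and the call was kept without mKO library A or WT library C and lost in the other 4 fits (adjusted p of 0.0718 to 0.171). Of the 31 genes, 24 had a negative estimate with the trend removed, with a median of -0.22 beside 0.037 for all genes. Unadjusted, 13 were under 0.05, where 23.6% of all genes were. They were 5 plexins, 5 membrane-bound ligands, Sema3f, Sema3g and Nrp2, the lowest adjusted p after Nrp2 being those of Plxnb2 (-0.51, SE 0.10, adjusted p = 0.0512) and Sema5b (-0.67, SE 0.16, adjusted p = 0.0618). Sema3g was the 1 of the 13 with a positive estimate (0.71, SE 0.27, adjusted p = 0.166).

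**Figure D5:**
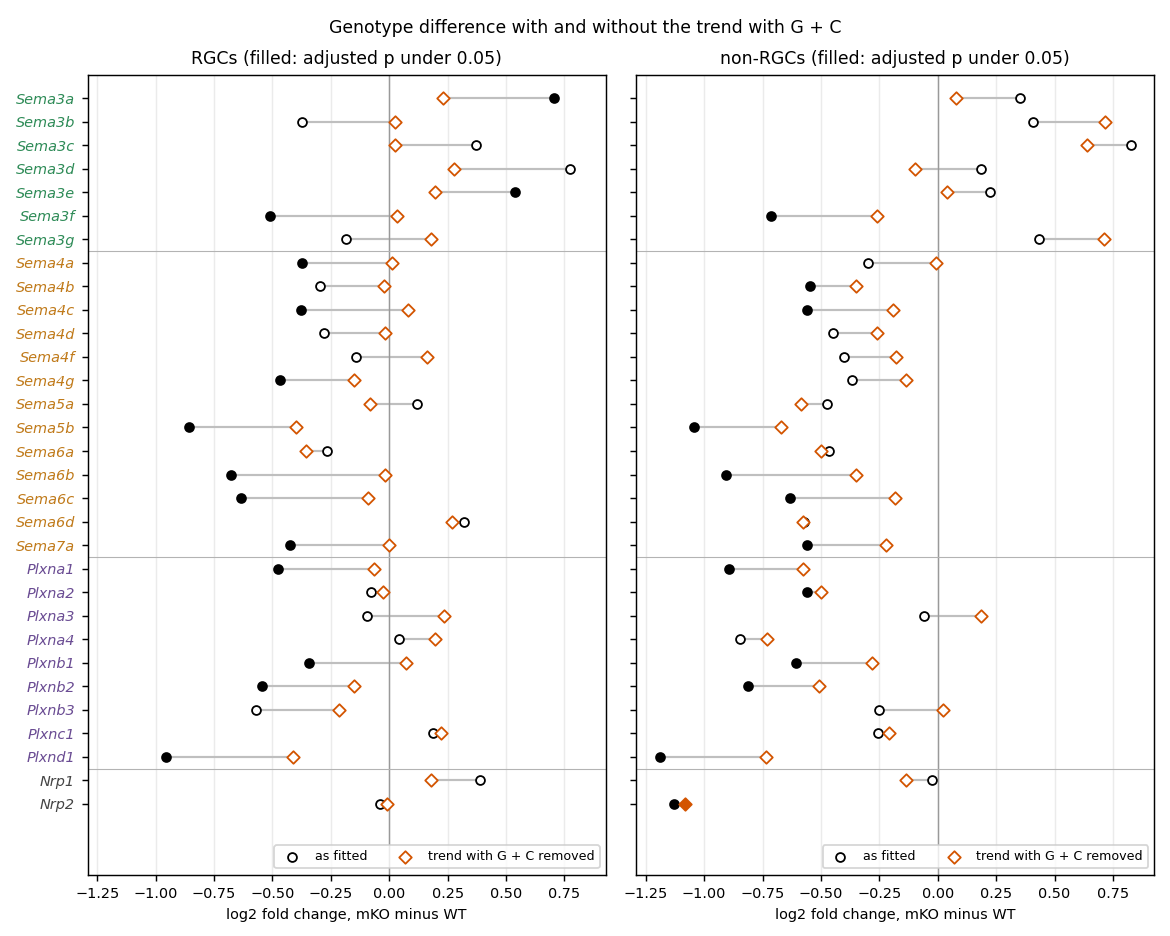
Log2 fold change of each gene, mKO minus WT (x axis), as fitted (black circles) and with the trend with G and C removed (orange diamonds), filled where the adjusted p was under 0.05. In RGCs most diamonds lie near 0, and in non-RGCs Nrp2 keeps its place at -1.08 and stays filled.

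Promoter sequence is shown for Nrp2 and Plxnd1, the genes whose falls were called with a base composition trend removed. Ezh2 places its mark, which the study describes as repressive, mostly at promoters rich in CG pairs. RefSeq promoter entries (GRCm38.p6) were found for 26 of the 31 genes by symbol, and the stretch printed runs from 250 to 51 bases before the RefSeq start, which for Nrp2 lies inside the GENCODE gene bounds given above. CG pairs are in capitals, and the count is of the letters CG, which read the same on both strands. The Nrp2 stretch, chr1:62703067-62703266 on the plus strand, holds 28 CG pairs, a count that 3.03% of 32851 promoters of that length reach. The Plxnd1 stretch, chr6:115995056-115995255 on the minus strand, holds 13, which 22.1% reach. Taking the entry with the most CG pairs of each gene, the median over the 26 genes was 12. The median over all 32851 promoters, with every entry counted, was 4. Sema3c, which was not called in any fit, had the highest count at 32, followed by Nrp2, Plxnb1 at 23 and Sema4c at 20. These 4 were the genes with at least 20, where 10.6% of all genes with an entry were. No binding or histone mark was measured in these libraries.
Nrp2: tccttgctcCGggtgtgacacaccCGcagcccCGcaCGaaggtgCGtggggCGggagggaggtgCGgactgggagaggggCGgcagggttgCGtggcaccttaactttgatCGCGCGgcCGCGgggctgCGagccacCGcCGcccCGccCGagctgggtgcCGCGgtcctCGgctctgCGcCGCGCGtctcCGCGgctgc
Plxnd1: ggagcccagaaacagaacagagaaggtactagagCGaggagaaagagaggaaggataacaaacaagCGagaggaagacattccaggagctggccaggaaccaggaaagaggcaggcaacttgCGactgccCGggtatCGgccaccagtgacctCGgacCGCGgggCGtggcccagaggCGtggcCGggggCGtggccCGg

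The pathway around the 31 genes was followed through 44 named partners, from adhesion molecules that join the receptor complex to the kinases and actin regulators downstream. In RGCs 43 were tested, 1 was higher and 16 lower, beside the 16.3% and 21.2% of all genes given above. The rise was Met, a receptor kinase that B-type plexins recruit, from 122 to 182 in WT to 229.6 to 254 normalised counts in mKO (log2 fold change 0.67, SE 0.16, adjusted p = 0.0169). The largest falls were Rras, a GTPase that plexins switch off (log2 fold change -1.02, SE 0.27, adjusted p = 0.0248), Cfl1, the actin-severing cofilin (log2 fold change -0.65, SE 0.066, adjusted p = 0.000855), and Crmp1, of the family that carries Sema3a signals to microtubules (log2 fold change -0.61, SE 0.050, adjusted p = 0.000651). Dpysl2, Dpysl3, Dpysl4 and Dpysl5 of the same family also fell, with log2 fold changes from -0.59 to -0.52. So did Cdk5, Cdk5r1, Limk1, Rac1, Rhoa, Fyn, Gipc1, Ranbp9 and L1cam.

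With the G and C trend removed, 10 of 43 partners were still lower in RGCs and 2 were higher (Cd72 and Farp2). Over all genes 14.1% were then called in either direction, and 0 of the 31 ligands and receptors were. Rhoa, at 43.4% G and C, became -0.63 (SE 0.066, adjusted p = 0.00315) and Rac1 -0.48 (SE 0.052, adjusted p = 0.00325). Met was not called without mKO RGC library A or B. With both trends removed 3 partners were lower, where 6.47% of all genes were called in either direction. The RGC marker sum was lower in mKO RGCs, as given above, and its part in the partners' values was not tested. In non-RGCs 0 of 40 partners were higher and 5 lower, beside 4.18% and 6.43% of all genes. The largest falls were Erbb2 (log2 fold change -0.72, SE 0.20, adjusted p = 0.0473), Arhgef11, the RhoA exchange factor on B-type plexins (log2 fold change -0.70, SE 0.17, adjusted p = 0.0336), and Limk1 (log2 fold change -0.63, SE 0.12, adjusted p = 0.0165), with Cdk5r1 and Dpysl5 behind them. Without the trend removed, the number lower was 0 when mKO or WT non-RGC library B was left out, 1 without WT library A, 3 without WT library C and 10 without mKO library C. With the trend removed 0 of 40 were called, where 1.51% of all genes were.

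Markers of other cell types also differed between genotypes. Summed progenitor markers were 14238 to 15310 in mKO RGCs and 14940.1 to 24806 in WT RGCs, and 20814 to 25858 in mKO and 27782 to 34372 in WT non-RGCs. Photoreceptor markers summed to 6771 to 7233 in mKO and 8191 to 11661 in WT RGCs, with 5 of 10 lower, and 5 of 10 were lower in non-RGCs as well. Markers of retinal pigment epithelium summed to 486.5 to 727.7 in mKO and 255 to 356 in WT RGCs, with 3 of 5 higher. In non-RGCs they summed to 1593 to 1869.7 in mKO and 382 to 668 in WT, with 4 of 5 higher, and 5 of 5 tested blood markers were higher in both fractions. Amacrine markers were lower for 4 of 8 in RGCs and 2 of 8 in non-RGCs, astrocyte and Mueller glia markers for 2 and 1 of 7, endothelial and pericyte markers for 1 and 0 of 8, and progenitor markers for 4 and 1 of 10. No microglia, mesenchyme or lens marker was called. Over all genes tested, 16.3% were higher and 21.2% lower in RGCs, and 4.18% and 6.43% in non-RGCs. With the G and C trend removed, the numbers lower in RGCs and non-RGCs were 2 and 1 for photoreceptor and 3 and 0 for amacrine markers. They were 1 and 0 for astrocyte and Mueller glia markers, and 0 and 0 for endothelial and pericyte and for progenitor markers. Those higher were 1 and 4 for pigment epithelium and 5 and 5 for blood. Of the 12 RGC markers, 8 were then still lower in RGCs and 5 still higher in non-RGCs. Over all genes 14.1% in RGCs and 1.51% in non-RGCs were then called in either direction. Among defining markers, 1 of 6 for pigment epithelium was at 0 in the WT libraries of both fractions and 1 of 5 for lens in WT non-RGCs. The part of these cell types in the values of the 31 genes was not tested.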

How the data were processed

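RNA-seq counts came from P0 retinas, 12 libraries in 4 groups of 3, with poly-A selection and single-end reads. Per the labels and methods, the authors aligned reads with STAR 2.3.1z4 to mm10, counted them per gene with featureCounts and normalised them with DESeq. The deposited signal is the group mean of 3 libraries' counts divided by size factors. The authors also deposited ratio (fold change), log2 fold change and p-value columns of their own comparisons, which were not used. The file names state that duplicate reads were removed.

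Because the means carry 15 significant digits, the whole reads of each library were recovered from them: 100% of genes with reads had exactly 1 combination of whole reads, and 0 of 1000 control values did. A library's letter is therefore not tied to a replicate number of the labels. Recovered depth was 7139633 to 13014004 reads. The SDs and ranges printed are over the 3 libraries of a group. The SEs are limma's for the log2 difference between groups, with the spread moderated across genes.

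Genes whose mean reached 10 in 1 or both genotypes were tested with limma 3.58.1 (R 4.3.3, trended prior) on log2(value + 1), which understates changes of low genes, and p-values were adjusted by the Benjamini-Hochberg method over all genes. A call is an adjusted p under 0.05. The tests thus rest on the recovered libraries, not on the deposited means. The difference between fractions was an interaction contrast over 12 libraries. With 3 against 3 an exact permutation test cannot give a p under 0.1. G and C shares, exon lengths and coding sequences came from GENCODE M21 (GRCm38). The trend of each library with the G and C share was removed by lowess (share 0.3), and that with reads per base over 300 neighbouring genes. Figures and tables were made with Python 3.11.15.

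All 31 genes are named, with full statistics for those called in a fraction or highest or lowest of their role. Partners are named where called, with values for the 3 largest rises and falls. Rhoa, Rac1, Cd72, Farp2 and Atoh7 were added after their values were seen. The members, lists and tests were chosen with earlier results of these data known. The read recovery, the trend removals and the main limma fits were tested on simulated data. Alternatives were a pseudocount of 0.5, no filter, a filter requiring a mean of 10 in each genotype, total read scaling, limma voom, the thresholds of the study and leaving out each library.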

Additional observations from a re-analysis of the deposited data

How the results depend on the processing

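No paired analysis was possible because the recovered libraries carry no replicate numbers. A pseudocount of 0.5, no filter on low values, a filter requiring a mean of 10 in each genotype and limma voom each left the call and the direction of the 64 values reported for the 31 genes as they were. The thresholds of the study gave 1 gene higher and 4 lower in RGCs, with 6 partners lower, 2 partners higher in non-RGCs and 2 genes for the difference between fractions. Scaling by total reads gave 4 genes and 4 partners higher and 9 genes and 14 partners lower in RGCs, and 8 genes lower, 1 partner higher and 2 partners lower in non-RGCs. Under it the RGC estimates of Plxna2, Plxna3 and Nrp2 became 0.045, 0.027 and 0.081, and the non-RGC estimates of Plxna3 and Nrp1 became 0.11 and 0.15.

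With the G and C trend removed, 0 genes were higher and 0 lower in RGCs (partners 2 and 10), and 1 gene and 0 partners were lower in non-RGCs. With reads per base removed as well, 0 genes were higher and 1 lower in RGCs (partners 0 and 3), and 1 gene and 0 partners were lower in non-RGCs. Directions that turned in RGCs with the first were the genes' median (0.010), Sema3b 0.026, Sema3f 0.033, Sema3g 0.18, Sema4a 0.010, Sema4c 0.081, Sema4f 0.16, Sema5a -0.083, Sema7a 0.00024, Plxna3 0.23 and Plxnb1 0.073. With both they were Sema3c -0.23, Sema3g 0.023, Sema4c 0.11, Sema4f 0.12, Sema5a -0.19, Sema7a 0.042, Plxna1 0.073, Plxna3 0.30 and Plxnb1 0.15. In non-RGCs they were Sema3d -0.099, Plxna3 0.18 and Plxnb3 0.021 with the first, and Sema3d -0.14, Sema3e -0.079 and Plxna3 0.14 with both. The cause was not tested.

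Leaving out each library in turn, genes higher in RGCs ran from 1 to 4 and lower from 8 to 16, partners higher from 0 to 2 and lower from 12 to 21. In non-RGCs genes lower ran from 3 to 12, partners higher from 0 to 1 and lower from 0 to 10. Genes above in WT RGCs ran from 13 to 17, a count that leaving out a library cannot lower. By the authors' size factors, added after seeing the data, there were 15. Shares of all genes were not taken for any of these counts. Estimates that changed sign ran in RGCs from -0.66 to 1.31 for Sema3c, -0.29 to 0.020 for Sema3g, -0.14 to 0.021 for Plxna2, -0.19 to 0.019 for Plxna3, -0.066 to 0.21 for Plxna4 and -0.29 to 0.12 for Nrp2. In non-RGCs they ran from -0.028 to 0.74 for Sema3b, -0.085 to 0.43 for Sema3d, -0.054 to 0.60 for Sema3e, -0.43 to 0.28 for Plxna3, -0.58 to 0.31 for Plxnb3 and -0.11 to 0.050 for Nrp1. Trend removal and a left-out library were combined after seeing the data: for Plxnd1 in RGCs the estimate was -0.50 to -0.31 with the G and C trend removed, and for Nrp2 in non-RGCs -1.27 to -0.92, called in 2 of 6 fits each. Fewer libraries leave less power, and 3 libraries per group limit what these tests can call.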
